A study of Nicotiana tabacum with 6 samples.

Results

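The genes that make and degrade starch were described in tobacco seedlings (Nicotiana tabacum, an allotetraploid crop). Control plants grew for 15 days in a nutrient solution whose ammonium nitrate was 7.5 mM, renewed every 7 days. Low nitrogen plants were treated alike, but at 0.75 mM ammonium nitrate. Polyadenylated RNA of 3 control and 3 low nitrogen libraries was sequenced. The labels give neither the organ nor the cultivar, and do not say whether libraries came from separate plants, so p-values measure the spread between these libraries only, which may be technical.

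Members were chosen by the symbol deposited beside each gene identifier, with names of starch enzymes as the rule. The rule itself uses no measured value, though it was set with earlier results of these data known. The rule found 56 of 69500 genes. Of these, 15 were placed in synthesis and 36 in breakdown. Another 3 carry the symbol PHS1 of a different protein, namely an Arabidopsis tyrosine phosphatase in 1 case (Nitab4.5_0007632g0020) and a maize meiosis protein in 2 cases. A further 2 genes are named SS1 with no locus, a symbol in use for starch synthase and for sucrose synthase, and were kept apart. The rule found 0 genes named GBSS, SEX4, GWD1, ISA1, ISA2, BAM5 or BAM9. Symbols in the table are those of similar genes, mostly of Arabidopsis, so a role given here is that of the Arabidopsis protein unless another species is named.

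Starch is built in plastids from glucose 1-phosphate. ADP-glucose pyrophosphorylase makes the activated sugar, starch synthases add it to growing chains, and branching enzymes create the branch points. Breakdown begins when glucan, water dikinases phosphorylate the granule surface, after which amylases, debranching enzymes and phosphorylases shorten the chains and disproportionating enzymes rearrange the products. In many plants starch builds up when nitrogen limits growth, which is the background to comparing both sides of the pathway here.

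Library totals ran from 13027374 to 15620067 counts. Of the 56 genes, 47 passed the filter on low counts, with 49 to 10380 counts over the 6 libraries, and 9 did not, with 2 to 42. Levels are CPM, counts scaled to a common library total, after TMM scaling unless called summed. Gene lengths were not used, so that levels are compared between libraries and not between genes. The control libraries were uneven. A set of 262 photosynthesis genes, an indicator of green tissue, summed to 118, 70.8 and 1899 CPM in control replicates 1 to 3, and in the low nitrogen libraries to 1106, 473 and 174 CPM. Small subunit genes of Rubisco summed to 0.921, 1.01 and 16.3 CPM in controls and to 8.23, 4.67 and 1.03 CPM in low nitrogen. Control replicate 3 and low nitrogen replicate 1 were thus highest in both sums. The 24 root genes on the marker list summed to 781 to 1310 CPM in controls and 966 to 1171 CPM in low nitrogen, with WER at 0 in 3 libraries. Genes named QPT alone gave 642, 879 and 1075 CPM in controls and 816, 934 and 798 CPM in low nitrogen. The root sum thus mostly follows that name and is no measure of root content. In RNA from whole samples, fewer cells of a type and less RNA per cell cannot be told apart.

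With all 6 libraries no starch gene passed the test for a difference between low nitrogen and control. edgeR's quasi-likelihood test, adjusted by Benjamini-Hochberg over all 38482 genes tested, called 0 genes in either direction (0% of all genes), and the smallest adjusted p among the members was 0.347. At an unadjusted p under 0.05 the breakdown side had 4 of 34 tested genes higher (11.8%) and 0 lower, beside 6.1% of all genes higher and 5.66% lower. The breakdown side includes 7 tested BAM7 and BAM8 genes, named for beta-amylases but nuclear proteins in Arabidopsis. Without them it had 3 of 27 genes higher (11.1%) and 0 lower, a choice made after the values were seen. On the synthesis side, 0 of 10 tested genes reached that level in either direction. The 4 genes were AMY1, ISA3, GWD2 and BAM8, each described with its step. DESeq2, which called 0.754% of all genes higher and 0.87% lower, also called 0 members after adjustment (smallest adjusted p 0.0596, AMY1). At an unadjusted p under 0.05 it gave 2 breakdown genes higher and 0 synthesis genes (5.52% of all genes higher), and limma-voom gave 3 breakdown genes (6.01% of all genes).

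The count of 4 moved each time 1 library was left out. It was 10 without control replicate 3, where 8.61% of all genes were higher. The count was 1 without control replicate 1 (3.03% of all genes), 2 without control replicate 2 (5.31%), 1 without low nitrogen replicate 1 (3.18%), 1 without low nitrogen replicate 2 (4.62%) and 2 without low nitrogen replicate 3 (7.29%). On the synthesis side AGPS1 (Nitab4.5_0001022g0030) was higher at that level without low nitrogen replicate 1, and 2 genes were higher without control replicate 3. SS1 (Nitab4.5_0007005g0040) was lower at that level without control replicate 2 (5.05% of all genes lower) and without low nitrogen replicate 3 (7.24%).

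After adjustment, DESeq2 but not edgeR called starch genes in 2 of these reduced sets, a combination of settings added after the data had been seen. Without control replicate 3, DESeq2 called 4 breakdown genes higher (11.8% of 34, against 2.54% of all genes). They were PHS2 (Nitab4.5_0008253g0030, adjusted p 0.00467), PHS2 (Nitab4.5_0000454g0020, 0.0142), AMY1 (Nitab4.5_0000287g0330, 0.0200) and PHS1 (Nitab4.5_0002362g0010, 0.0250). Control replicate 3 was the highest control in all 4, so leaving it out raised their fold changes by construction. Without low nitrogen replicate 2, DESeq2 called AMY1 alone (adjusted p 0.0131, 0.472% of all genes). With any other library dropped it called 0 starch genes, the share of all genes called higher being 0.249% and 0.505% for the loss of control replicates 1 and 2 and 0.221% and 1.55% for that of low nitrogen replicates 1 and 3.

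**Figure D1:**
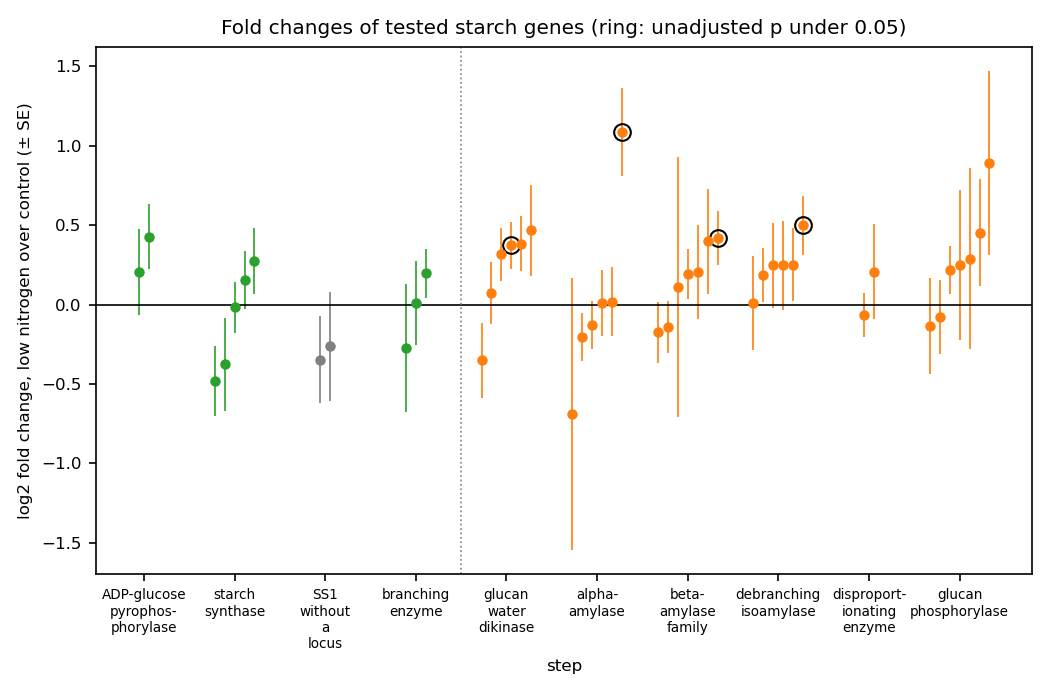
Log2 fold change (low nitrogen over control, vertical axis) with its standard error for each tested gene, grouped by step, with synthesis at the left in green, the SS1 genes of unclear identity in grey and breakdown at the right in orange. Rings mark the 4 genes at an unadjusted p under 0.05, which all lie above 0, and AMY1 has the highest value at 1.08.

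ADP-glucose pyrophosphorylase catalyses the committed step of synthesis. Of its 6 genes only 2, both named AGPS1, had enough counts to be tested, and whether they encode the small or the large subunit is not given by the symbol. AGPS1 (Nitab4.5_0001022g0030) was at 54.4, 39.8 and 55.7 CPM in controls and 53.9, 65.6 and 81.9 CPM in low nitrogen, each in the order of replicates 1 to 3, which is kept for all genes. Low nitrogen replicates 2 and 3 lay above every control, but replicate 1 lay within them. The log2 fold change was 0.43 (SE 0.20, edgeR adjusted p 0.455). A second AGPS1 gene (Nitab4.5_0007468g0020) was at 26.0, 25.8 and 47.9 CPM in controls and 31.4, 45.03 and 38.4 CPM in low nitrogen, so that control replicate 3 held the highest value of all. The other 4 genes, 3 named AGPS1 and AGPB1 (the latter with 42 counts in all), had at most 16 counts in a library.

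Starch synthases lengthen the glucan chains. With all libraries the SS2 genes lay above 0 and the SS1 genes below, though 1 SS1 gene was near 0 and changed sign between settings. SS1 (Nitab4.5_0007005g0040), which makes short chains, was at 9.75, 6.98 and 9.06 CPM in controls and 4.97, 6.25 and 7.21 CPM in low nitrogen. The groups overlapped through control replicate 2, and the log2 fold change was -0.48 (SE 0.22, edgeR adjusted p 0.442), the smallest adjusted p on the synthesis side. The other SS1 gene with the Arabidopsis locus (Nitab4.5_0005393g0030) stayed between 10.5 and 13.7 CPM in all 6 libraries, with a log2 fold change of -0.02 (SE 0.16). SS2 (Nitab4.5_0002980g0050), which extends chains to intermediate length, was at 20.2, 18.1 and 26.1 CPM in controls and 26.1, 19.99 and 25.6 CPM in low nitrogen. A second SS2 gene (Nitab4.5_0000564g0020) was at 13.6, 13.3 and 21.4 CPM in controls and 20.7, 19.5 and 18.2 CPM in low nitrogen. For this gene all low nitrogen libraries lay above control replicates 1 and 2 and below control replicate 3. The log2 fold changes of the 2 SS2 genes were 0.15 (SE 0.18) and 0.27 (SE 0.21), in the order named. SS3 (Nitab4.5_0000448g0110), which in potato bears the synonym SSIII, was at 1.73 to 1.91 CPM in controls and 1.25 to 1.60 CPM in low nitrogen. Its groups did not overlap, which held for 1 of 10 synthesis genes in the lower direction and 8.54% of all genes, and its log2 fold change was -0.37 (SE 0.29). The single SS4 gene held 2 counts in all.

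Branching enzymes introduce the side chains of amylopectin. SBE2.2 (Nitab4.5_0000588g0040) was at 43.8, 56.6 and 42.8 CPM in controls and 51.5, 52.6 and 59.9 CPM in low nitrogen, with overlap and a log2 fold change of 0.20 (SE 0.15, edgeR adjusted p 0.621). The other SBE2.2 genes had log2 fold changes of 0.01 (Nitab4.5_0004686g0020, 10.9 to 19.2 CPM over all libraries) and -0.27 (Nitab4.5_0003541g0040, 0.971 to 2.69 CPM). Both were highest in control replicate 3.

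The SS1 genes without a locus held 10380 and 8234 counts in all, so counting them as synthesis would change its total. Nitab4.5_0007169g0010 was at 107, 116 and 187 CPM in controls and 96.1, 139.5 and 87.3 CPM in low nitrogen. Nitab4.5_0000170g0050 was at 71.9, 91.4 and 153 CPM in controls and 98.5, 109 and 56.3 CPM in low nitrogen. Both were highest in control replicate 3 and lowest in low nitrogen replicate 3, with log2 fold changes of -0.35 (SE 0.27) and -0.26 (SE 0.34).

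Glucan, water dikinases add the phosphate that opens the granule. With all libraries, 1 of 4 GWD2 genes was higher without overlap of the groups, beside 9.66% of all genes. In all 4 the low nitrogen libraries lay above control replicates 1 and 2, a pattern looked at after the values were seen. The share of all genes with that pattern was not determined. GWD2 is a dikinase that in Arabidopsis lies outside the plastid. GWD2 (Nitab4.5_0007943g0010) was at 47.9, 41.7 and 57.3 CPM in controls and 60.6, 63.9 and 65.7 CPM in low nitrogen. The groups did not overlap, and the log2 fold change was 0.37 (SE 0.15, unadjusted p 0.0392, edgeR adjusted p 0.412). The unadjusted p of this gene ranged from 0.0151 to 0.122 with 1 library left out. GWD2 (Nitab4.5_0002255g0040) was at 38.3, 38.0 and 52.7 CPM in controls and 54.4, 48.3 and 57.9 CPM in low nitrogen. GWD2 (Nitab4.5_0001693g0060) was at 19.6, 19.9 and 28.0 CPM in controls and 31.8, 29.0 and 27.3 CPM in low nitrogen. GWD2 (Nitab4.5_0012294g0010) was at 15.4, 22.7 and 33.4 CPM in controls and 39.0, 33.2 and 26.8 CPM in low nitrogen. In the last 3 of these genes control replicate 3 lay among the low nitrogen libraries. Summed over the 4 genes, controls had a mean of 136 ± 34.2 CPM and low nitrogen libraries one of 183 ± 10.7 CPM (SD, n = 3). GWD2 genes may be near-identical copies between which the counting split reads, so the 4 are not independent of each other.

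The related GWD3 genes, whose product (also PWD) acts on glucan that already carries phosphate, had 1 fold change on each side of 0. Their log2 fold changes were 0.07 (SE 0.19) for Nitab4.5_0000335g0110 and -0.35 (SE 0.24) for Nitab4.5_0008420g0020. Summed, controls had a mean of 20.1 ± 1.57 CPM and low nitrogen libraries one of 19.5 ± 3.46 CPM (SD, n = 3). Whether GWD2 and GWD3 differed in response was not tested.

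Alpha-amylases cut inside the glucan chain. AMY1 (Nitab4.5_0000287g0330), a secreted amylase in Arabidopsis, was at 4.22, 5.18 and 6.65 CPM in controls and 12.5, 7.81 and 13.8 CPM in low nitrogen. Every low nitrogen library lay above every control, which held for 4 of 34 breakdown genes and 9.66% of all genes. Controls had a mean of 5.35 ± 1.23 CPM and low nitrogen libraries one of 11.4 ± 3.16 CPM (SD, n = 3), and the log2 fold change was 1.08 (SE 0.28). Its edgeR p was 0.00545 unadjusted and 0.347 adjusted, and DESeq2 gave an adjusted p of 0.0596. The unadjusted edgeR p ranged from 0.00156 to 0.0217 with 1 library left out, and the log2 fold change from 0.92 to 1.29. A second AMY1 gene held 3 counts in all.

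AMY3, the plastid alpha-amylase, had 5 tested genes with log2 fold changes from -0.69 to 0.02. The AMY3 gene with the most counts (Nitab4.5_0000212g0220) was at 19.7, 15.8 and 15.0 CPM in controls and 14.6, 14.0 and 15.3 CPM in low nitrogen, a log2 fold change of -0.20 (SE 0.15). AMY3 (Nitab4.5_0003280g0040) had the highest ratio of control replicate 3 to the mean of the other controls among tested starch genes, 7.53. This gene was at 5.77, 4.35 and 38.1 CPM in controls and 16.02, 4.18 and 9.85 CPM in low nitrogen. It was highest in control replicate 3 and next in low nitrogen replicate 1, where the photosynthesis sums were also highest (1899 and 1106 CPM). The part of green tissue in this value was not tested. The log2 fold change of -0.69 (SE 0.86) became 0.98 without control replicate 3.

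The beta-amylase family is represented by BAM7 and BAM8, proteins that in Arabidopsis lie in the nucleus, bind DNA and act as transcription factors, and not by the plastid enzymes that release maltose. BAM8 (Nitab4.5_0000583g0040) was at 13.3, 14.2 and 15.1 CPM in controls and 22.6, 18.8 and 15.7 CPM in low nitrogen. The groups did not overlap, though low nitrogen replicate 3 and control replicate 3 lay close together, and the log2 fold change was 0.42 (SE 0.17, unadjusted p 0.0399, edgeR adjusted p 0.413). The unadjusted p ranged from 0.0140 to 0.141 with 1 library left out. The BAM7 gene carries the identifier that follows it (Nitab4.5_0000583g0050). This BAM7 gene was at 2.03, 1.95 and 3.04 CPM in controls and 3.99, 2.998 and 2.29 CPM in low nitrogen, with low nitrogen replicate 1 highest in both genes. Whether the 2 models are parts of 1 gene was not determined. The 5 other tested BAM8 genes had log2 fold changes from -0.17 to 0.20. Among them Nitab4.5_0001351g0040 was at 6.53 to 6.58 CPM in controls and 5.87 to 6.03 CPM in low nitrogen, a log2 fold change of -0.14 (SE 0.16) without overlap.

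ISA3 debranches glucans during breakdown, and its 6 genes had log2 fold changes from 0.01 to 0.50, where 50.3% of all genes were above 0. Of the 6, 5 stayed above 0 under all 21 settings run, and Nitab4.5_0007392g0010 ran from -0.27 to 0.25. As with GWD2, copies may share split reads, so the 6 are not independent of each other. ISA3 (Nitab4.5_0004462g0010) was at 4.06, 4.43 and 3.96 CPM in controls and 6.02, 5.62 and 5.97 CPM in low nitrogen. Both groups were tight and apart from each other, with a log2 fold change of 0.50 (SE 0.19, unadjusted p 0.0299, edgeR adjusted p 0.397). Its unadjusted p ranged from 0.0475 to 0.0857 with 1 library left out. ISA3 (Nitab4.5_0000053g0170), the copy with the most counts, was at 13.3, 13.7 and 23.6 CPM in controls and 25.0, 18.0 and 16.9 CPM in low nitrogen. There control replicate 3 lay among the low nitrogen libraries, and the log2 fold change was 0.25 (SE 0.27).

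Disproportionating enzymes transfer glucan pieces between chains, DPE1 in the plastid and DPE2 on maltose in the cytosol. DPE1 (Nitab4.5_0000471g0040) was at 15.2, 15.8 and 15.3 CPM in controls and at 14.1, 16.5 and 13.6 CPM in low nitrogen, with a log2 fold change of -0.06 (SE 0.14). DPE2 (Nitab4.5_0001388g0030) was at 3.98, 2.55 and 3.33 CPM in controls and 3.99, 2.75 and 4.65 CPM in low nitrogen, with a log2 fold change of 0.21 (SE 0.30). For both genes the ranges of the groups overlapped.

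Glucan phosphorylases release glucose 1-phosphate, PHS1 in the plastid and PHS2 in the cytosol. All 7 genes were highest among the controls in replicate 3. PHS1 (Nitab4.5_0005196g0060) was at 60.2, 54.7 and 68.0 CPM in controls and 71.9, 61.0 and 79.7 CPM in low nitrogen, a log2 fold change of 0.22 (SE 0.15, edgeR adjusted p 0.585). PHS1 (Nitab4.5_0002362g0010) had the smallest p of the step and was at 0.731, 1.28 and 3.75 CPM in controls and 4.62, 2.498 and 3.68 CPM in low nitrogen. Its log2 fold change was 0.89 (SE 0.58, edgeR adjusted p 0.556) with all libraries and 1.82 (SE 0.45) without control replicate 3. PHS1 (Nitab4.5_0000154g0300) lay on the other side of 0, at 46.6, 41.4 and 81.8 CPM in controls and 41.4, 46.03 and 67.3 CPM in low nitrogen, with a log2 fold change of -0.14 (SE 0.30). It was highest in control replicate 3, and the fold change ran from -0.37 to 0.22 with 1 library left out.

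For PHS2, control replicate 3 also stood with the low nitrogen libraries. PHS2 (Nitab4.5_0000454g0020) was at 35.2, 37.5 and 79.7 CPM in controls and 87.7, 58.5 and 62.6 CPM in low nitrogen. PHS2 (Nitab4.5_0008253g0030) was at 8.69, 7.95 and 34.6 CPM in controls and 25.0, 14.2 and 23.6 CPM in low nitrogen. In both genes every low nitrogen library lay above control replicates 1 and 2, but the groups overlapped through control replicate 3. The share of all genes with that pattern was not determined. The log2 fold changes were 0.45 (SE 0.34) and 0.29 (SE 0.57) with all libraries, and 0.93 (SE 0.22) and 1.32 (SE 0.28) without control replicate 3. The third PHS2 gene (Nitab4.5_0004359g0030) was at 8.12 to 13.1 CPM in all libraries, with a log2 fold change of -0.08 (SE 0.23).

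**Figure D2:**
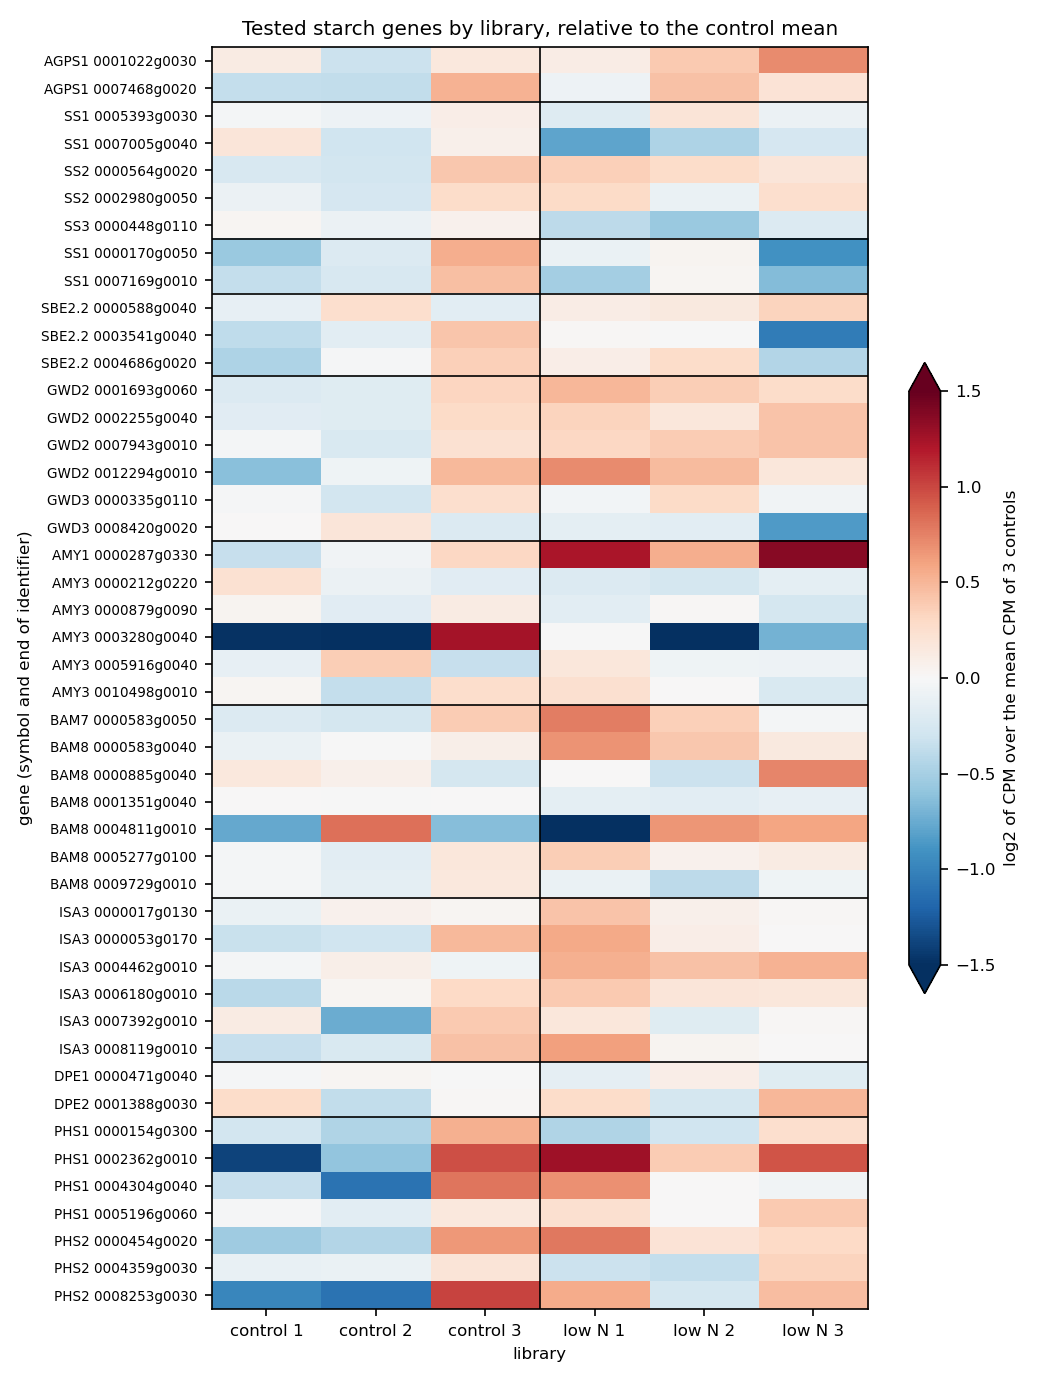
Level of each tested starch gene (rows, grouped by step in the order of the text) in each library (columns), as log2 of its CPM over the mean CPM of the 3 controls. Blue is below and red above the control mean, with colours capped at the ends of the scale. In the GWD2 and in several PHS1, PHS2 and ISA3 rows, control replicate 3 is red like most low nitrogen libraries, while control replicates 1 and 2 are blue or near white.

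Control replicate 3 had higher levels of most starch genes than the other controls. It was the highest of the 3 controls for 33 of 44 tested synthesis and breakdown genes (75.0%), against 36.7% of all genes. The ratio of control replicate 3 to the mean of control replicates 1 and 2 had a median of 1.27 over synthesis genes and 1.30 over breakdown genes. In 5 breakdown genes the ratio was at least 2, namely AMY3 (Nitab4.5_0003280g0040, 7.53), PHS2 (Nitab4.5_0008253g0030, 4.16), PHS1 (Nitab4.5_0002362g0010, 3.74), PHS1 (Nitab4.5_0004304g0040, 2.79) and PHS2 (Nitab4.5_0000454g0020, 2.19).

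Without control replicate 3, the 10 breakdown genes higher in low nitrogen at an unadjusted p under 0.05 were the 4 GWD2 genes, 2 PHS1, 2 PHS2, AMY1 and ISA3 (Nitab4.5_0000053g0170). They made up 29.4% of the 34 tested, against 8.61% of all genes. Control replicate 3 was the highest control for 25 of the 34 (73.5%), against 36.7% of all genes. Leaving it out therefore raises fold changes of breakdown genes more often by construction, so the larger share is not separate evidence of a difference. On the synthesis side, AGPS1 (Nitab4.5_0007468g0020) and SS2 (Nitab4.5_0000564g0020) were higher. With edgeR no member passed after adjustment (smallest adjusted p 0.129), where 0.0104% of all genes were called higher and 0.013% lower. Control replicate 3 and low nitrogen replicate 1 had the highest photosynthesis sums. When both were left out, 8 breakdown and 3 synthesis genes were higher at an unadjusted p under 0.05 (6.04% of all genes), and 0 passed after adjustment (0% of all genes, smallest adjusted p among members 0.231). The part of green tissue in these counts was not tested.

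**Figure D3:**
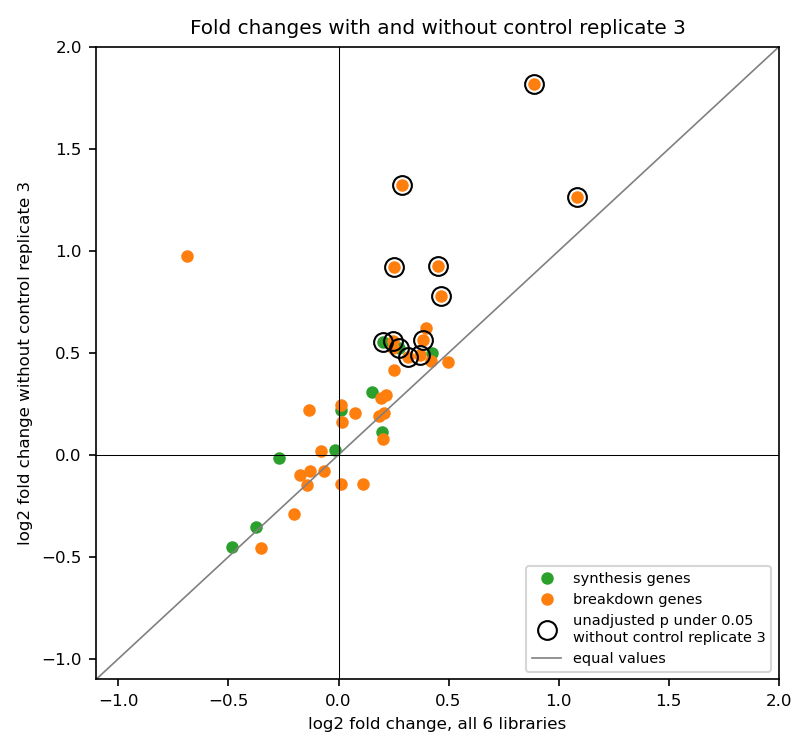
Log2 fold change of each tested synthesis and breakdown gene with all 6 libraries (horizontal axis) and without control replicate 3 (vertical axis). Rings mark genes at an unadjusted p under 0.05 without that library (10 breakdown, 2 synthesis). Most points with a positive value lie above the line of equal values, and AMY3 at -0.69 moves to 0.98.

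Summed levels of both sides of the pathway were higher in control replicate 3 than in control replicates 1 and 2. The 15 synthesis genes summed to 184, 184 and 248 CPM in control replicates 1 to 3, and in the low nitrogen libraries to 231, 252 and 253 CPM. The 36 breakdown genes summed to 464, 458 and 737 CPM in controls and 729, 601 and 646 CPM in low nitrogen. Control replicate 3 lay within the low nitrogen range for synthesis and above it for breakdown. Group means were 205 ± 36.9 and 245 ± 12.6 CPM for synthesis, and 553 ± 160 and 659 ± 64.9 CPM for breakdown (SD, n = 3), so that the log2 ratio of means was 0.26 and 0.25. These sums are scaled by total counts. With the TMM factors used for single genes, the ratios were smaller, at 0.199 for synthesis and 0.197 for breakdown.

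The balance of the synthesis and breakdown sums did not separate the groups. These sums follow the names of the rule and do not measure starch made against starch degraded. The breakdown sum includes GWD2 (control mean 136 CPM) and PHS2 (77.6 CPM), which in Arabidopsis lie outside the plastid, and the nuclear BAM7 and BAM8. Neither sum includes the WAXY and BAM1 genes described further below. The synthesis sum was 39.7%, 40.2% and 33.6% of the breakdown sum in the controls and 31.6%, 41.8% and 39.2% in low nitrogen. The lowest shares were in low nitrogen replicate 1 and control replicate 3, the same libraries that had the highest photosynthesis sums, and the part of green tissue in this order was not tested. With the 2 SS1 genes of unclear identity counted as synthesis, the log2 ratio of the synthesis means was 0.0031 in place of 0.26. The median log2 fold change over tested genes was 0.08 for synthesis (6 of 10 above 0) and 0.21 for breakdown (25 of 34 above 0), against 0.0029 over all genes tested, of which 50.3% were above 0. The breakdown median fell to 0.10 without control replicate 1, to 0.13 without control replicate 2 and to 0.098 without low nitrogen replicate 1. The synthesis median was -0.03 without low nitrogen replicate 2.

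**Figure D4:**
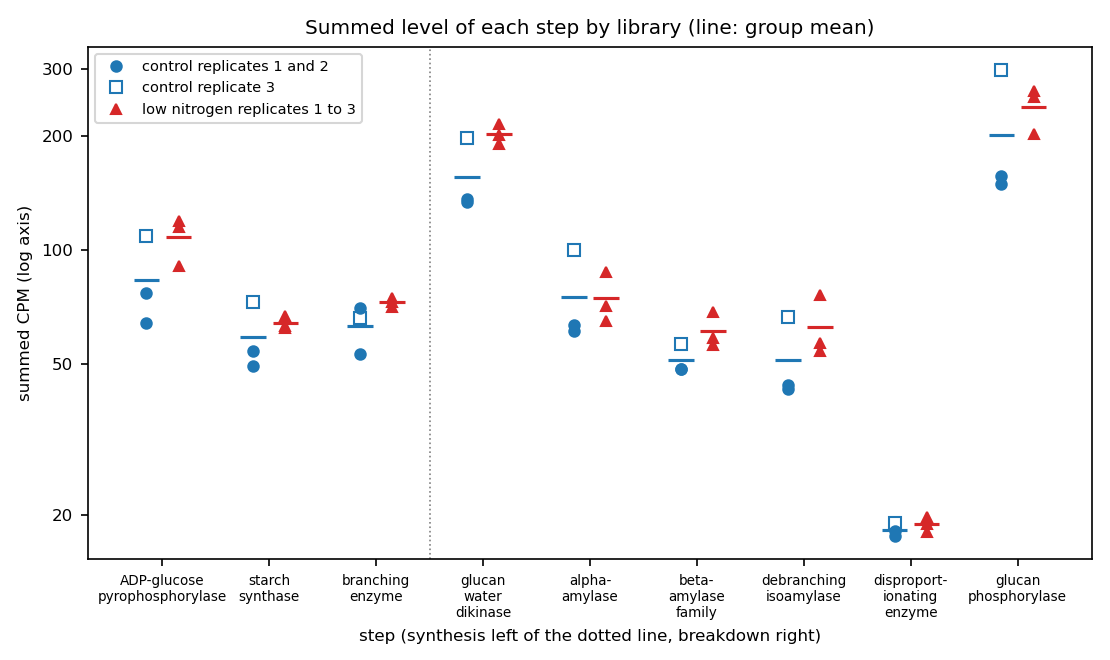
Summed CPM of each step (log axis, scaled by total counts) in each library, with control replicates 1 and 2 as filled circles, control replicate 3 as an open square and low nitrogen libraries as triangles; short lines are group means. Dikinase genes are on average at 156 CPM for controls and at 203 CPM for low nitrogen, with control replicate 3 at 197 CPM among the low nitrogen libraries, and disproportionating enzymes are nearly level at 18.2 and 18.9 CPM.

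Other genes of the pathway, listed by name with earlier results of these data known, had fold changes mostly below 0. Of 37 such genes 29 were tested, 0 passed after adjustment, and 7 had an unadjusted p under 0.05, of which 2 were higher (6.1% of all genes) and 5 lower (5.66%). The log2 fold change was below 0 for 19 of the 29, with a median of -0.13. Among the 19 were all 7 tested GPT1 and all 5 tested PGM1 genes, which may not be independent within a name. The 4 genes with the smallest p all encode GPT1, which imports glucose 6-phosphate into plastids that do not photosynthesise, and thereby feeds starch synthesis there.

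GPT1 (Nitab4.5_0000397g0260) was at 135, 134 and 117 CPM in controls and 76.75, 92.1 and 107 CPM in low nitrogen, a log2 fold change of -0.49 (SE 0.16, edgeR adjusted p 0.386). GPT1 (Nitab4.5_0000792g0050) was at 19.8, 20.6 and 21.2 CPM in controls and 12.9, 15.4 and 15.4 CPM in low nitrogen, a log2 fold change of -0.49 (SE 0.13, edgeR adjusted p 0.353). GPT1 (Nitab4.5_0011608g0020) was at 116, 120 and 92.2 CPM in controls and 64.4, 78.3 and 90.2 CPM in low nitrogen. In these and in GPT1 (Nitab4.5_0015362g0010), with 16.1 to 18.7 CPM in controls and 10.6 to 13.9 CPM in low nitrogen, every low nitrogen library lay below every control, as for 8.54% of all genes. These 4 were named for their small p, so this follows in part from the choice. All 7 tested GPT1 genes had log2 fold changes below 0, from -0.82 to -0.27, where 50.3% of all genes were above 0. Of the 7, 6 kept that sign under all 21 settings run. As with GWD2, these genes may be near-identical copies between which the counting split reads, so the 7 are not independent of each other. In Nitab4.5_0000397g0260 and Nitab4.5_0011608g0020 control replicate 3 was the lowest control and low nitrogen replicate 1 the lowest library of all, the libraries where the photosynthesis sums were highest (1899 and 1106 CPM), and the part of green tissue in these values was not tested. Without low nitrogen replicate 3, DESeq2 called 2 GPT1 genes lower after adjustment (2.27% of all genes), namely Nitab4.5_0003343g0070 (adjusted p 0.0169) and Nitab4.5_0000397g0260 (0.0278).

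The other gene below an unadjusted p of 0.05 in the lower direction was MEX1 (Nitab4.5_0002990g0020), the maltose exporter of the plastid. MEX1 was at 3.41, 3.45 and 3.40 CPM in controls and 2.24, 2.19 and 2.15 CPM in low nitrogen, a log2 fold change of -0.64 (SE 0.23, edgeR adjusted p 0.393). The higher genes were PU1, a debranching pullulanase (Nitab4.5_0004987g0060, log2 fold change 0.58, SE 0.22), and PTST, a protein that targets granule-bound starch synthase to starch (Nitab4.5_0000578g0130, 0.46, SE 0.20).

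Names that neither rule covered were looked up after the symbols had been seen. They were 15 BAM1 genes, a plastid beta-amylase by its synonym, 3 WAXY genes with the synonym GBSS for the amylose-making synthase, and 1 AMY2A gene. Of 16 tested, 14 had log2 fold changes above 0 (50.3% of all genes), 10 of them BAM1 genes, which may not be independent of each other. At an unadjusted p under 0.05, 0 were lower (5.66% of all genes) and 1 was higher (6.1%), a share near the background. It was BAM1 (Nitab4.5_0002367g0220), at 13.6, 15.1 and 17.0 CPM in controls and 18.5, 19.5 and 19.6 CPM in low nitrogen, with a log2 fold change of 0.33 (SE 0.14, edgeR adjusted p 0.417). WAXY (Nitab4.5_0003419g0070) was at 49.5, 35.3 and 79.6 CPM in controls and 76.75, 86.1 and 93.5 CPM in low nitrogen, a log2 fold change of 0.64 (SE 0.28, edgeR adjusted p 0.432). WAXY (Nitab4.5_0002520g0080) was at 52.5, 54.5 and 102.7 CPM in controls and 95.1, 83.1 and 83.5 CPM in low nitrogen. In both, all low nitrogen libraries lay above control replicates 1 and 2, while control replicate 3 lay among or above them. The share of all genes with that pattern was not determined. Without control replicate 3, DESeq2 called both higher after adjustment (adjusted p 0.00226 and 0.00967, with 2.54% of all genes called higher). Control replicate 3 was the highest control in both, so leaving it out raised their fold changes by construction.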

How the data were processed

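The authors deposited raw whole-number counts per gene of the Nitab4.5 gene set, with a symbol for 44455 of 69500 genes. The submitters' processing notes name the aligner HISAT2, without a version. Counting tool, strand setting and multi-mapping rules were not given in the sources used here. Looked up in RefSeq (ASM71507v2), 0 identifiers matched, so no coordinates or sequences are printed. Genes were kept by filterByExpr (38482), scaled by TMM and compared with edgeR 4.0.16 (R 4.3.3; glmQLFit, glmQLFTest, Benjamini-Hochberg, threshold 0.05). SE is the size of the log2 fold change over the root of F. Summed levels are CPM on total counts, without TMM. DESeq2 1.42.0 and limma 3.58.1 were alternatives, and DESeq2 with each library left out was added after the data had been seen. The procedure was also run on simulated data with 200 changed genes. The share recovered is not given here, so a lack of calls does not show that levels were unchanged.

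Members and lists were chosen with earlier results of these data known. Genes were named by step, taking the smallest p and the most counts, plus those at an unadjusted p under 0.05 and the 4 smallest p of the other pathway genes. Genes at that level without control replicate 3, those with control replicate 3 at least 2 times the other controls, remaining members, and the MEX1, PU1, PTST, WAXY and BAM1 genes, and genes that DESeq2 called with a library left out, were named after their values were seen. Marker names starting CB, and CAB39, CABIN1, PSAT and Psapl1, were dropped as not photosynthetic.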

Additional observations from a re-analysis of the deposited data

How the results depend on the processing

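With edgeR, limma-voom, and DESeq2 on all libraries, 0 members passed the adjusted threshold under the alternatives run (other factors or filters, the replicate block, summed symbols, each library left out, or 2 left out). DESeq2 with a library left out, an alternative added after the data had been seen, was the exception: it called 4 breakdown genes without control replicate 3, and AMY1 alone when low nitrogen replicate 2 was dropped (1 gene). In those DESeq2 fits the breakdown genes higher at an unadjusted p under 0.05 numbered 1, 1 and 10 without controls 1 to 3 (2.83%, 4.69% and 8.02% of all genes) and 1, 1 and 2 without low nitrogen libraries 1 to 3 (2.64%, 4.06% and 6.17%). At most 2 synthesis genes were higher, without control replicate 3. In the lower direction, 1 synthesis gene reached that level without control replicate 2 (4.93% of all genes lower) and 1 without low nitrogen replicate 3 (7.94%). The 4 breakdown genes at that level became 2 with DESeq2 on all libraries (5.52% of all genes higher). With identical symbols summed, 1 breakdown symbol was higher, beside 6.38% of the 16100 symbols and unnamed genes tested. PHS1 and SS1 were omitted there, since they mix functions. That unit is a symbol and not a gene, so the 1 is not comparable with the 4. The breakdown count was 8 when control replicate 3 and low nitrogen replicate 1 were both dropped (6.04% of all genes). There synthesis had 3 in place of 0 and a summed log2 ratio of 0.46 in place of 0.26. With 1 library left out, edgeR gave 1 to 10 breakdown genes higher, 0 to 2 synthesis genes higher and 0 to 1 lower. The summed log2 ratio then ran from 0.18 to 0.41 for synthesis and from 0.13 to 0.51 for breakdown. With all 56 genes of the rule, the summed synthesis ratio was 0.0031. The breakdown median ran from 0.098 to 0.30 with 1 library left out. The synthesis median was -0.03 without low nitrogen replicate 2 and also with no filter on low counts. Without the BAM7 and BAM8 genes the breakdown count was 3, the median 0.22 and the summed log2 ratio 0.25. The cause of these shifts was not tested.

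With the replicate number as a block the breakdown count was 1 (4.33% of all genes higher). The numbers were not taken as pairs, because the labels do not say that a number marks a shared plant, day or batch. Same-numbered libraries did not deviate together (r = -0.32, 0.10 and -0.27 for numbers 1 to 3). These r compare the deviations of libraries from their group means. Such deviations sum to 0 within each group, so these r cannot decide whether the numbers mark pairs. In such deviations control replicate 3 went most closely with low nitrogen replicate 1 (r = 0.38). In the log levels themselves its r was 0.937, 0.944 and 0.940 with low nitrogen replicates 1 to 3, lowest with replicate 1.

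The 28 single genes were named mostly for a small p or many counts, so they do not stand for all starch genes. Tested members outside the 28 often reversed between settings. Among these were AMY3, BAM8, GWD3, ISA3, PHS2, SBE2.2 and SS1 genes and PHS1 (Nitab4.5_0000154g0300, -0.39 to 0.35). Of the 28, 24 kept their direction throughout, and the others reversed. SS1 (Nitab4.5_0007169g0010) ran from -0.58 to -0.065 with 1 library left out and was at 0.0099 without both libraries named above. PHS1 (Nitab4.5_0004304g0040) ran from -0.092 to 0.92, with -0.038 when low nitrogen replicate 1 was dropped. DESeq2 gave it -0.098 without control replicate 2 and -0.036 with low nitrogen replicate 1 dropped. PHS2 (Nitab4.5_0008253g0030) ran from -0.053 to 1.32, with -0.026 when control replicate 1 was dropped, and DESeq2 gave -0.025 and -0.054 without control 1 or 2. AMY3 (Nitab4.5_0003280g0040) ran from -1.21 to 0.98, with 0.46 without both libraries, and DESeq2 gave 0.97 without control replicate 3. The 9 untested genes, with at most 16 counts in a library, are too shallow for a comparison.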
